A study of Macaca mulatta with 9 samples.

Results

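The spliceosome and hnRNP genes of the rhesus monkey ovary were described across 3 ages. They were taken by symbol from the probe annotation of the array: every gene whose symbol starts with SNRP, SF3A, SF3B, HNRNP, SRSF, PRPF or U2AF, or with LSM followed by a digit. This gave 61 of the 14132 genes that the annotation names, namely 8 SNRP, 9 LSM, 7 SF3, 3 U2AF, 10 PRPF, 8 SRSF and 16 HNRNP genes. Each was read from 1 probe set, its brightest over the 9 arrays. A further 22 genes whose RefSeq symbols fit the rule, SRSF1, SRSF2, SF3B1 and HNRNPA2B1 among them, were not analysed here.

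The ovaries came from 3 young monkeys of 3 to 4 years, 3 middle-aged monkeys of 7 to 8 years and 3 old monkeys of 18 to 19 years, and 1 array was hybridised for each monkey. Per the study's methods, the young animals were cycling but had not bred, the middle-aged ones were of good breeding capacity, and the old ones had lost it. Young and middle-aged ovaries were taken close to proestrus. All animals were perfused under anaesthesia, and a part of a single ovary of each was frozen and used for RNA, so that each array averages over all cell types of that part.

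Introns are removed from pre-mRNA by the spliceosome, which is built anew on each intron from small nuclear ribonucleoproteins (snRNPs). The Sm proteins (SNRP genes) and the LSM proteins form rings on the small nuclear RNAs. U2AF and the SF3a and SF3b complexes mark the 3′ splice site and the branch point, and the PRPF proteins act at several steps. SR proteins (SRSF genes) and hnRNP proteins bind the pre-mRNA itself and influence which splice sites are used; hnRNPs also act in the export, stability and translation of mRNA. In the ovary, growing oocytes make and store large amounts of RNA, and granulosa cells divide as follicles grow, so that cells with high RNA metabolism are a changing part of the organ.

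Expression was lower in old than in young ovaries in estimate for 53 of the 61 genes, and the median log2 fold change was -0.39, which is small against the largest differences on these arrays. No single gene passed the limma test in any comparison. A gene was called when the adjusted p of limma, a linear model with a moderated variance fitted to all 52766 probe sets, was under 0.05 and the fold change at least 1.5. In old against young ovaries 0 of the 61 genes were called, beside 0.155% of all probe sets. The smallest adjusted p with limma was 0.0774, for HNRNPM. SAM, the permutation method named by the study, called HNRNPM and SRSF6, 2 of the 61 genes, at a false discovery rate of 5% with the same fold minimum. It called 368 probe sets in all, 0.697%. The study's own SAM list holds more of these genes. As lower in old than in young ovaries it gives LSM3, LSM5, SF3A3, HNRNPC and HNRNPD among others. HNRNPM, HNRNPK, SRSF6 and HNRNPH1 are on it under other symbols. Its values for HNRNPH1 and HNRNPK are those of further probe sets, not of the brightest ones used here. The log2 fold changes were -0.82 and -0.83 in those further probe sets, and -0.33 and -0.18 in the brightest ones. HNRNPD is also on its list against middle-aged ovaries.

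At an unadjusted p under 0.05, 27 of the 61 genes (44.3%) were lower in old than in young ovaries, where 7.89% of all probe sets were; without young monkey 2 the count was 17. None was higher, where 5.58% of all probe sets were. All 3 old arrays lay below all 3 young arrays for 34 genes (55.7%), beside 9.46% of all probe sets, and above them for 1 gene, U2AF1L4, beside 7.38%. Every member had a mean log2 intensity of at least 5, while many probe sets of the array were close to background. Among the 9914 genes at or above that mean, 14.4% were lower at that unadjusted p and 7.9% higher, 16% lay without overlap below the young arrays, and the median log2 fold change was -0.03. The share past a 1.5-fold difference was near that of other genes. Of the 61, 12 (19.7%) differed by 1.5-fold or more, beside 12% of all probe sets and 22% of those 9914 genes; 11 were lower and 1 higher in old ovaries, and in all but SRSF12 the difference was under 2-fold.

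**Figure D1:**
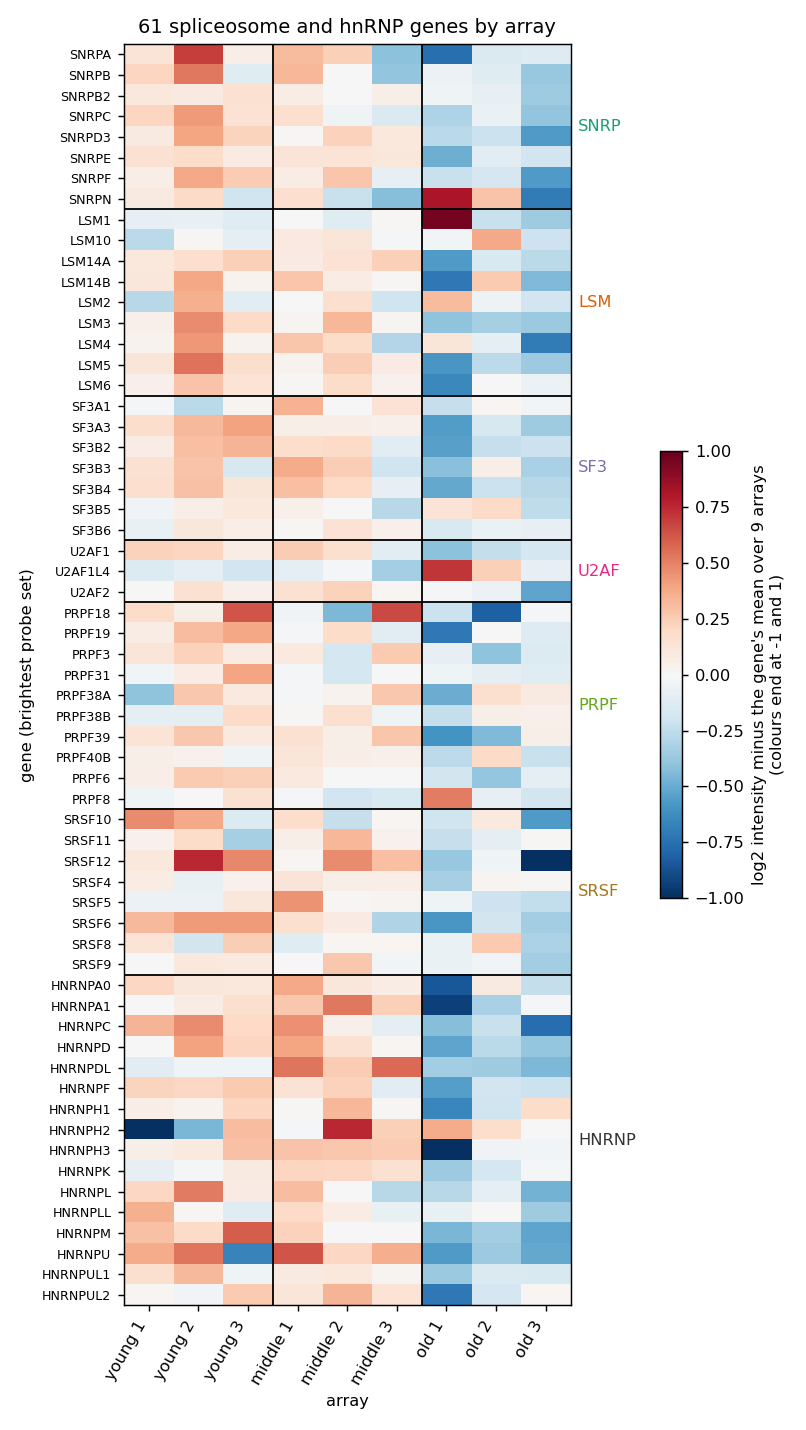
Log2 RMA intensity of each of the 61 genes (rows, by subfamily) on each of the 9 arrays (columns), after the gene's mean over the 9 arrays was taken off; red is above and blue below that mean, and colours end at -1 and 1. Most rows are blue in the 3 old columns, and SNRPN, LSM1, U2AF1L4 and PRPF8 are red on the array of old monkey 1.

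Array by array, the median over the 61 genes of log2 intensity minus the gene's own mean was 0.08, 0.19 and 0.11 in the young ovaries, 0.12, 0.14 and 0.02 in the middle-aged ones, and -0.33, -0.10 and -0.24 in the old ones. The old ovaries lay below the other 6, and young and middle-aged ovaries overlapped. The array of old monkey 2 was the least low of the 3. For the 9853 other genes with a mean log2 intensity of at least 5, a floor that most members exceed by far, the array medians stayed between -0.07 and 0.02.

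The same samples differed in cell type markers. The marker lists hold 9 cell types. Of the 9 measured oocyte markers 5 were called lower in old against young ovaries, NLRP5, ZAR1, OOEP, FIGLA and ZP3, and the median of the list by array was 0.52 to 1.84 in young, 0.11 to 1.43 in middle-aged and -2.29 to -1.74 in old ovaries. NOBOX and BMP15 were dim on all 9 arrays, at intensities of 8.61 to 17.3. ZP4 was higher in old than in young ovaries, at a log2 fold change of 0.83 and an unadjusted limma p under 0.05. Its old values lay above all young and middle-aged ones. The 10 markers of dividing cells were all lower in estimate, with a median of -2.23 and no call. Their array medians were 0.05 to 2.02 in young, -0.50 to 1.18 in middle-aged and -1.79 to -0.51 in old ovaries. Granulosa markers differed among themselves: AMH had a log2 fold change of -3.88 and INHA one of 2.67, and their array medians were -1.17 to 0.55 in young, -1.36 to 0.32 in middle-aged and -1.34 to -0.04 in old ovaries. The 8 endothelial markers were higher in estimate in old against young ovaries (median 1.44), with array medians of -0.52 to 1.42 in old and -0.86 to -0.52 in young ovaries. The 4 markers of steroid-making theca and luteal cells were also all higher in estimate (median 1.61), with array medians of 0.10 to 2.46 in old and -1.74 to 0.39 in young ovaries. Of the 7 surface epithelium markers 6 were lower in estimate (median -0.96), and their array medians were -0.46 to 0.04 in old and 0.15 to 1.24 in young ovaries. The median was 0.90 for 5 smooth muscle markers and 0.62 for 5 leukocyte markers, all higher in estimate, and -0.08 for 6 stromal fibroblast markers. The array medians of smooth muscle and of leukocytes overlapped between old and young ovaries. Between young and middle-aged ovaries those of smooth muscle did not overlap, at -0.91 to -0.63 in young and -0.08 to 1.15 in middle-aged ones. Those of endothelium and surface epithelium did not either, at -0.40 to 0.49 and -0.65 to -0.16 in middle-aged ones. In old against middle-aged ovaries the median log2 fold change of the surface epithelium markers was 0.13. No marker outside the oocyte list was called. The part of these shifts in the values of the splicing genes was not tested. In whole tissue, fewer cells of a type and less RNA per cell cannot be told apart.

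**Figure D2:**
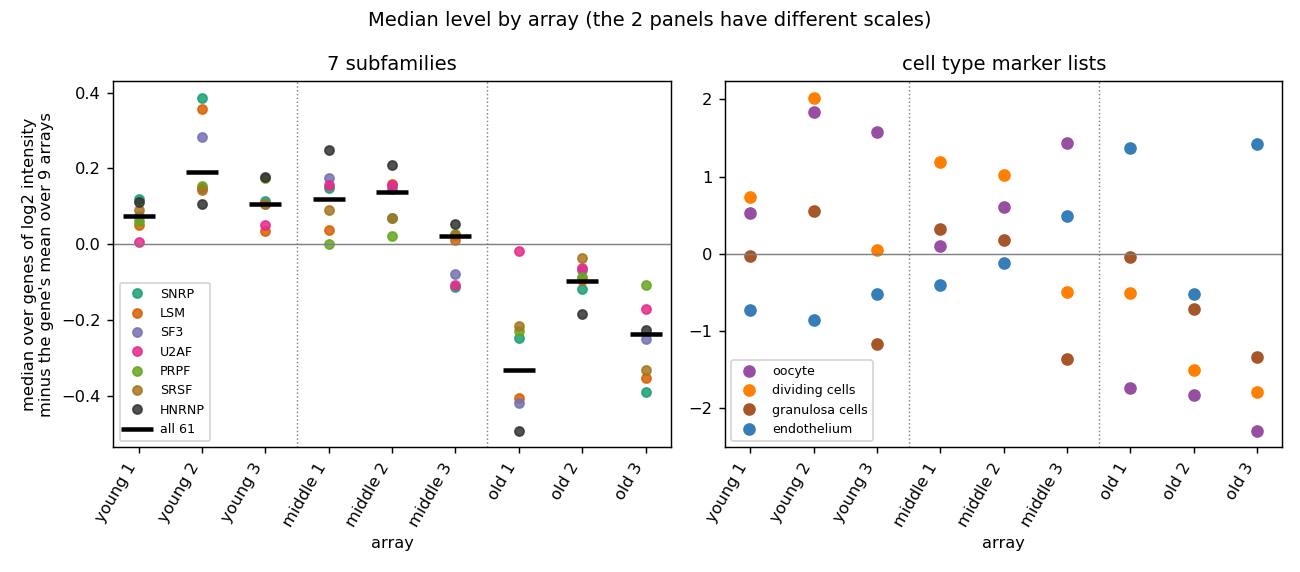
Median over genes, on each array, of the log2 RMA intensity after subtraction of the mean of the gene, for the 7 subfamilies and all 61 genes (left) and for 4 marker lists (right, on a wider scale). The medians of all 61 genes lie between 0.02 and 0.19 on the young and middle-aged arrays and between -0.33 and -0.10 on the old ones; the oocyte list is at -1.74 or lower on the old arrays.

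The SNRP genes encode the Sm ring and the proteins particular to the U1 and U2 snRNPs. Of the 8, 7 were lower in old than in young ovaries in estimate, 6 of them at an unadjusted p under 0.05, and the median log2 fold change was -0.46. SNRPD3, an Sm ring protein, had intensities of 582, 722 and 640 in young, 551, 644 and 591 in middle-aged, and 454, 473 and 369 in old ovaries. The 3 old values lay below the other 6, and the log2 fold change in old against young ovaries was -0.59 ± 0.14 (SE, n = 3 per group; limma adjusted p = 0.143). SNRPF, also of the ring, had intensities of 716, 888 and 814, then 720, 830 and 648, then 586, 609 and 461 in the same order. Its old values again lay below the rest, at a log2 fold change of -0.55 ± 0.15.

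SNRPC, a U1 protein that contacts the 5′ splice site region, was at 1608, 1858 and 1527 in young, 1559, 1348 and 1250 in middle-aged, and 1121, 1326 and 1052 in old ovaries. Old lay below young, but old monkey 2 overlapped the middle-aged group, and the log2 fold change was -0.51 ± 0.14 against young and -0.25 ± 0.14 against middle-aged ovaries. SNRPB2, a U2 protein, stepped down through the ages without overlap in a narrow range, from 622 to 650 in young through 582 to 614 in middle-aged to 456 to 567 in old ovaries; its log2 fold change of -0.28 was -0.18 without old monkey 3. SNRPN, an imprinted relative of the ring protein SNRPB, was the exception. Its intensities were 5385, 5771 and 4404 in young, 5690, 4344 and 3763 in middle-aged, and 8914, 6150 and 3111 in old ovaries, so that the old group held both the highest and the lowest of the 9 values. Its log2 fold change of 0.11 in old against young ovaries became -0.24 without old monkey 1.

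The LSM genes were less uniform. LSM2 to LSM8 form the ring on U6 small nuclear RNA, and LSM1 replaces LSM8 in the cytoplasmic ring that takes part in mRNA decay. Of the 9 genes, 6 were lower in estimate in old than in young ovaries, 3 of them at an unadjusted p under 0.05, with a median log2 fold change of -0.39. LSM3 had intensities of 709, 947 and 781 in young, 696, 858 and 697 in middle-aged, and 516, 542 and 529 in old ovaries. The old values were close together and below the other 6, at a log2 fold change of -0.61 ± 0.14 (limma adjusted p = 0.137).

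LSM5 was at 818, 1091 and 845, then 769, 892 and 794, then 502, 625 and 583, and differed by -0.68 ± 0.15 (limma adjusted p = 0.122), again with old below the rest. LSM14A, a protein of cytoplasmic processing bodies that is not part of the rings, was at 903, 941 and 990, then 889, 927 and 990, then 566, 754 and 694. Its log2 fold change was -0.50 ± 0.13, with the old group apart from the others. LSM1 and LSM10, which belongs to the U7 snRNP of histone mRNA processing, had positive estimates. LSM1 was at 621, 624 and 603 in young, 658, 602 and 662 in middle-aged, and 1273, 563 and 514 in old ovaries. The old monkeys fell on both sides of the other 6, and the log2 fold change of 0.22 was -0.20 without old monkey 1.

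The SF3 genes encode parts of the U2 snRNP that hold the branch point. Of the 7, 6 were lower in old than in young ovaries in estimate and 3 at an unadjusted p under 0.05; the median log2 fold change was -0.32. SF3A3 was at 767, 849 and 895 in young, 705, 709 and 701 in middle-aged, and 459, 605 and 530 in old ovaries. The 3 groups did not overlap, with the middle-aged values between the others, and the log2 fold change in old against young ovaries was -0.66 ± 0.12 (limma adjusted p = 0.0989). SF3B4 was at 444, 484 and 430, then 487, 453 and 374, then 277, 340 and 327, and SF3B2 at 512, 600 and 616, then 549, 554 and 452, then 334, 415 and 420. In both the old group lay below the others, at -0.53 ± 0.14 for SF3B4 and -0.57 ± 0.14 for SF3B2. SF3A1 had a log2 fold change of 0.01 ± 0.14 against young ovaries, with old values of 3086 to 3658 inside the young and middle-aged range of 3003 to 4607.

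The U2AF heterodimer reads the 3′ splice site: U2AF2 binds the pyrimidine tract and U2AF1 the AG. U2AF1 was at 2533, 2504 and 2272 in young, 2564, 2404 and 2000 in middle-aged, and 1619, 1828 and 1913 in old ovaries, and U2AF2 at 664, 734 and 685, then 737, 775 and 672, then 653, 634 and 459. In both, all old values lay under the other 6. The log2 fold change in old against young ovaries was -0.45 ± 0.13 for U2AF1 and -0.27 ± 0.15 for U2AF2, the latter -0.11 without old monkey 3. U2AF1L4, a relative of U2AF1, was the dimmest of the members and not far above the median probe set of the arrays. It was at 31.8, 32.8 and 30.5 in young, 32.7, 34.4 and 27.6 in middle-aged and 57.1, 41.1 and 33.0 in old ovaries. Its old values were above the young ones, at a log2 fold change of 0.43 ± 0.19 (limma adjusted p = 0.383; 0.22 without old monkey 1), and overlapped the middle-aged ones.

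Of the 10 PRPF genes 9 were lower in estimate in old against young ovaries, 4 at an unadjusted p under 0.05, with a median log2 fold change of -0.29. PRPF6, which bridges the U5 and the U4/U6 snRNPs, was at 294, 336 and 332 in young, 301, 281 and 281 in middle-aged, and 247, 215 and 263 in old ovaries. The old values lay below the other 6, and the log2 fold change was -0.41 ± 0.11. PRPF19, a ubiquitin ligase of the active spliceosome, had -0.54 ± 0.20 (-0.32 without old monkey 1) and PRPF39, a U1-associated protein, -0.50 ± 0.17; in both the old values lay below the young ones and reached the middle-aged ones. PRPF8, the protein at the catalytic centre, was at 528, 545 and 607 in young, 538, 478 and 491 in middle-aged, and 776, 515 and 480 in old ovaries. Only old monkey 1 was above the other groups, and the log2 fold change of 0.04 was -0.17 without it.

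The 8 SR protein genes were all lower in estimate in old against young ovaries, but by little, with a median log2 fold change of -0.19 and 2 genes at an unadjusted p under 0.05. SRSF6, an SR protein that binds exonic enhancers, was at 1334, 1432 and 1430 in young, 1187, 1126 and 864 in middle-aged, and 711, 940 and 835 in old ovaries. Old and middle-aged values both lay below all young ones and overlapped each other. Its log2 fold change was -0.76 ± 0.15 in old against young ovaries (limma adjusted p = 0.111) and -0.41 ± 0.15 in middle-aged against young ones. SRSF12, an SR-related splicing regulator, had the largest difference of the 61 genes, 2.23-fold lower in old than in young ovaries. Its intensities were 149, 233 and 193, then 140, 191 and 170, then 106, 134 and 42.4; old monkey 3 was far below the other 2, and the log2 fold change of -1.16 ± 0.39 (limma adjusted p = 0.266) was -0.66 without it. SRSF10, a regulator that can repress splicing, had -0.46 ± 0.22 with overlapping groups, and -0.29 without old monkey 3.

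Among the 16 HNRNP genes 15 were lower in estimate in old against young ovaries, 8 of them at an unadjusted p under 0.05. In 10 (62.5%) the old arrays lay below all young ones, beside 9.46% of all probe sets and 16% of genes with a mean log2 intensity of at least 5. The median log2 fold change was -0.49. HNRNPM, a regulator of alternative splicing, was at 397, 369 and 492 in young, 380, 325 and 325 in middle-aged, and 236, 255 and 225 in old ovaries. The old values lay below the other 6 and the log2 fold change was -0.80 ± 0.14 (1.75-fold lower; limma adjusted p = 0.0774). HNRNPC, which binds uridine tracts, was at 1326, 1458 and 1205, then 1438, 1086 and 980, then 781, 899 and 618, and differed by -0.81 ± 0.19 (limma adjusted p = 0.142), with the old group lowest. HNRNPF, a binder of G-rich runs, was at 1866, 1852 and 1923, then 1774, 1873 and 1476, then 1094, 1403 and 1376. All old values of HNRNPF lay below the rest, at -0.55 ± 0.14.

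HNRNPD, which binds AU-rich elements of mRNA, was at 627, 832 and 727 in young, 828, 696 and 638 in middle-aged, and 436, 522 and 479 in old ovaries, at a log2 fold change of -0.60 ± 0.15 with the old group apart. HNRNPU, a nuclear scaffold protein, was at 1135, 1267 and 552 in young, 1358, 1013 and 1128 in middle-aged, and 593, 683 and 613 in old ovaries. Young monkey 3 lay below all the old ones, so that old and young overlapped (-0.56 ± 0.29; -0.93 without that monkey and -0.33 without young monkey 2), while old and middle-aged did not (-0.88 ± 0.29). HNRNPH2, a relative of HNRNPF, was the only HNRNP gene with a positive estimate against young ovaries, 0.69 ± 0.39, and its young values ran from 65.7 to 213 and enclosed the 3 old ones except for 1, at 222. That value was 0.26 without young monkey 1 and 1.10 without young monkey 3.

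HNRNPDL, a close relative of HNRNPD, had a pattern of its own. Its intensities were 1150, 1200 and 1200 in young, 1794, 1473 and 1835 in middle-aged, and 972, 966 and 906 in old ovaries. No groups overlapped, and the middle-aged ovaries were highest. The log2 fold change was -0.84 ± 0.11 in old against middle-aged (limma adjusted p = 0.110), -0.32 ± 0.11 in old against young and 0.52 ± 0.11 in middle-aged against young ovaries, the last with a limma adjusted p of 1.00. HNRNPK, which binds C-rich sequence, and HNRNPA1, a shuttling regulator of splice site choice, also lay higher in all middle-aged than in all young ovaries, by 0.20 ± 0.12 and 0.27 ± 0.22. HNRNPA1 was at 1470, 1544 and 1635 in young, 1764, 2114 and 1733 in middle-aged, and 768, 1173 and 1453 in old ovaries. The old values were the lowest, and the log2 fold change in old against young ovaries was -0.50 ± 0.22, or -0.25 without old monkey 1. HNRNPH1, a relative of HNRNPF, was at 2304, 2259 and 2560, then 2226, 2773 and 2220, then 1402, 1918 and 2508. Old and young overlapped, and its log2 fold change of -0.33 ± 0.21 was -0.11 without old monkey 1 and -0.53 without old monkey 3.

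**Figure D3:**
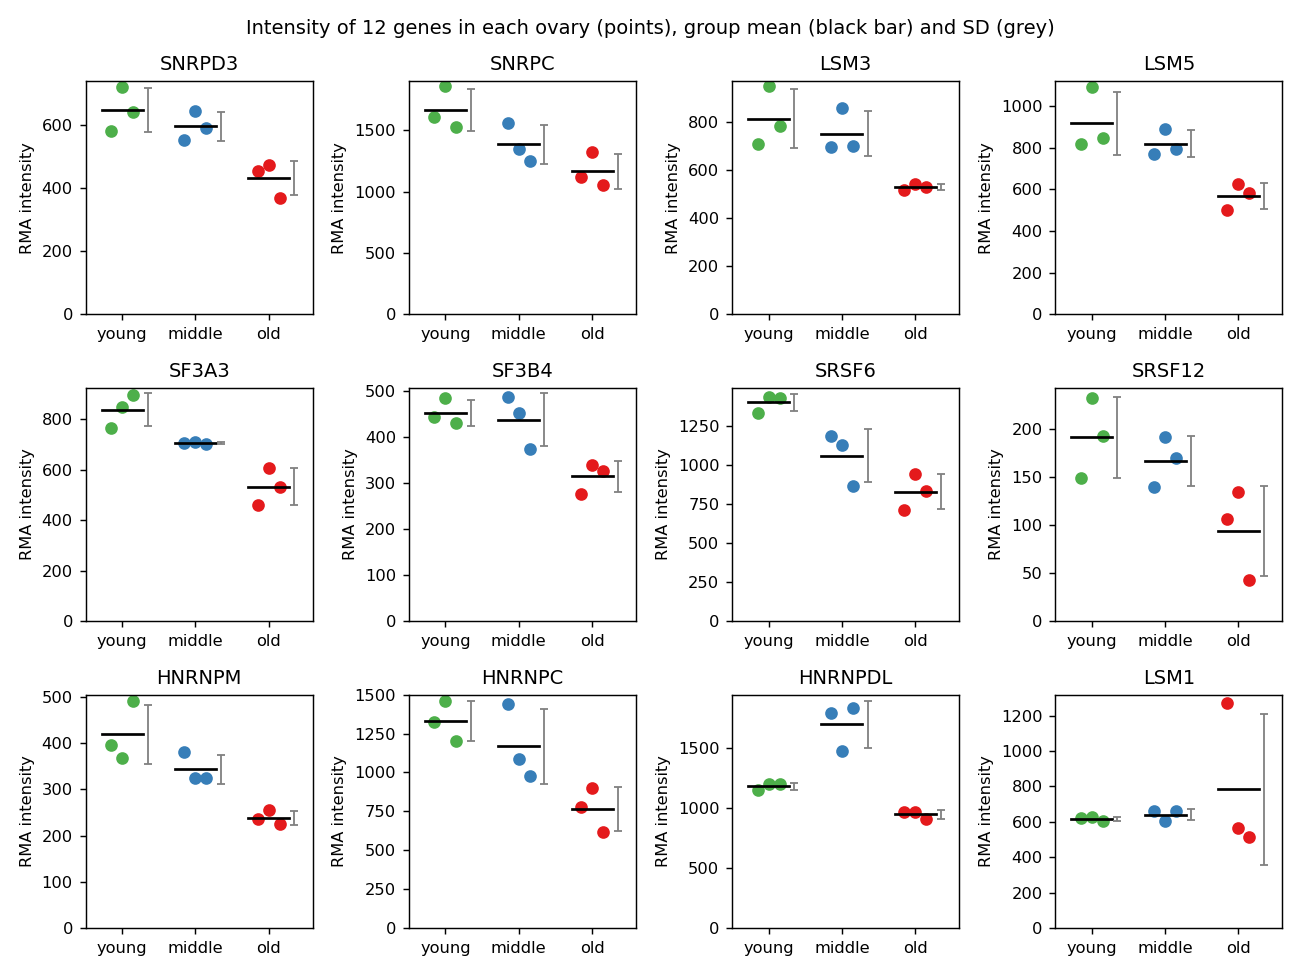
RMA intensity (linear axis from 0) of 12 genes in each ovary (points), with the mean (black bar) and SD (grey) of the 3 monkeys of each age. The old points lie below all others for SNRPD3, LSM3, LSM5, SF3A3, SF3B4, HNRNPM, HNRNPC, SRSF12 and HNRNPDL, the middle-aged points of HNRNPDL are the highest of that gene, and 1 old point of LSM1 stands at 1273 beside 514 and 563.

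Against middle-aged ovaries the values were alike in size. These comparisons share the 3 old arrays and are not independent of each other. No member was called by limma or by SAM as run here, though the study's own list against middle-aged ovaries holds HNRNPD. Its value there is that of a further probe set, with a log2 fold change of -0.90, where the brightest had -0.58. Among genes lower against both other ages the study names the spliceosome pathway. It places SRSF2 and HNRNPA1L2, which were not analysed here, and a gene given by Ensembl number in that pathway. By limma 0.0341% of all probe sets were called. Of the 61 members, 55 were lower in estimate and the median log2 fold change was -0.33. At an unadjusted p under 0.05, 24 members were lower (4.79% of all probe sets; 15 members without middle-aged monkey 1) and 0 higher (3.08%; 2 members without old monkey 3), and 30 lay below all middle-aged arrays (6.49%) and 0 above them (5.33%). Among genes with a mean log2 intensity of at least 5, 9.68% were lower at that p and 11% lay below all middle-aged arrays. The HNRNP genes made up 12 of the 24 members lower at that p. Their median was -0.50, with all 16 lower in estimate, and HNRNPDL had the smallest limma adjusted p, 0.110. The other medians were -0.32 for SNRP, -0.31 for LSM, -0.37 for SF3, -0.34 for U2AF, -0.22 for PRPF and -0.24 for SRSF. In 23 members the old arrays were below both other groups.

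Between middle-aged and young ovaries the members differed little. None was called by limma or SAM, beside 0.0019% of probe sets by limma, and the smallest limma adjusted p was 1.00. The median log2 fold change was -0.06, with 39 lower and 22 higher in estimate. At an unadjusted p under 0.05, 1 member, SRSF6, was lower (1.73% of probe sets) and 1, HNRNPDL, higher (1.45%). The first count was 0 without young monkey 3 or middle-aged monkey 3 and 3 without middle-aged monkey 1, and the second was 2 without young monkey 3. Middle-aged arrays lay below all young ones in 3 members, SNRPB2, SF3A3 and SRSF6 (4.35% of probe sets), and above them in HNRNPA1, HNRNPDL and HNRNPK (4.43%). These shares are near those of the whole array. The 8 SNRP genes were all lower in estimate, by 0.01 to 0.27, with a median of -0.16, and 9 of the 16 HNRNP genes were higher, with a median of 0.03. Over the 3 ages the middle-aged mean stood between the other 2 in 35 members, above both in 21 and below both in 5.

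When the 3 old ovaries were set against the 6 others together, 0 members were called by limma, beside 0.116% of probe sets, and the smallest limma adjusted p was 0.0754, for HNRNPDL. At an unadjusted p under 0.05, 33 were lower (7.58% of probe sets) and 1, U2AF1L4, higher (5.41%). The old arrays lay below all 6 others in 23 members (4.36%) and above them in 0 (2.45%). Among genes with a mean log2 intensity of at least 5, 14.7% were lower at that p and 8.39% lay below all 6 others. By subfamily, 13 of 16 HNRNP, 5 of 8 SNRP, 4 of 9 LSM, 3 of 7 SF3, 2 of 3 U2AF, 4 of 10 PRPF and 2 of 8 SRSF genes were lower at that p.

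**Figure D4:**
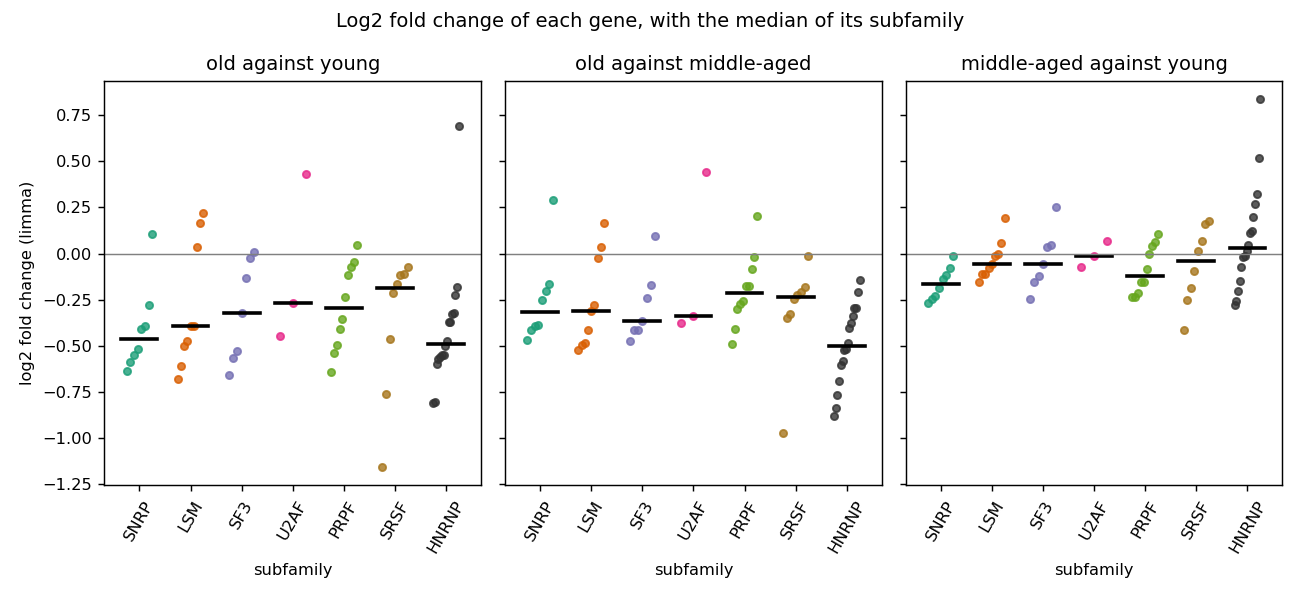
Log2 fold change of each gene (points) from limma, by subfamily, with the subfamily median (bar), in the 3 comparisons. In old against young ovaries the medians run from -0.49 (HNRNP) to -0.19 (SRSF), and in middle-aged against young ones from -0.16 (SNRP) to 0.03 (HNRNP).

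The subfamilies were ordered in old against young ovaries as HNRNP (-0.49), SNRP (-0.46), LSM (-0.39), SF3 (-0.32), PRPF (-0.29), U2AF (-0.27) and SRSF (-0.19), and their ranges of single genes overlapped throughout. The order was not firm. Without old monkey 1 the HNRNP median was -0.28, behind SNRP at -0.45, U2AF at -0.36 and PRPF at -0.29, and with the mean of all probe sets of a gene it was -0.32 beside -0.46 for SNRP. The U2AF median rests on 3 genes and was -0.11 without old monkey 3. In old against middle-aged ovaries the PRPF median was -0.088 and the HNRNP median -0.29 without old monkey 1. Within the old group, the lowest value of a gene fell on monkey 1 in 32 members, on monkey 3 in 26 and on monkey 2 in 3, so that the members did not share 1 lowest ovary. The HNRNP and SF3 genes were most often lowest in monkey 1 (10 of 16 and 6 of 7), the SNRP genes in monkey 3 (6 of 8). The array of old monkey 1 had the lowest median correlation with the other 8 arrays, 0.957, where the others had 0.965 to 0.983; the difference between 3′ and 5′ control probe sets of GAPDH, a sign of RNA integrity, was 1.64 to 2.36 on the log2 scale in old and 1.77 to 2.22 in young ovaries. With each of the 9 arrays left out in turn, 47 members kept a negative log2 fold change in old against young ovaries, 17 stayed lower at an unadjusted p under 0.05, 11 turned sign, and no member was called by limma.

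Many members were measured more than once, which gives a second reading of the same RNA. The 61 genes had 136 probe sets, and 36 genes had several. Of the 75 further probe sets, 53 had the sign of the brightest one in old against young ovaries and 22 the opposite sign; among the 56 with a mean log2 intensity of at least 5, 42 had the same sign. None was called by limma in any comparison. Over all 136 probe sets the median log2 fold change was -0.31. The 5 readings of HNRNPD ran from -0.73 to -0.43, and those of HNRNPH3 from -0.68 to -0.56 in 4 probe sets, with -0.27 in a dim one of mean log2 intensity under 5. LSM5 had -0.68 and -0.85, and -0.43 in a dim probe set. SRSF6 had a second reading of -0.49, also without overlap between old and young.

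Other genes did not hold across probe sets. HNRNPM, with the smallest p of the members in old against young ovaries, had 0.02 in a further probe set and -0.19 in a dim one, and LSM14A had 0.08 and 0.02 beside its -0.50. SF3A3 had -0.23 and -0.27, without the stepwise order of the brightest probe set. HNRNPK, at -0.18 in its brightest probe set, had -0.83, -0.49 and -0.39 in 3 others and 0.09 in a dim one, and the 8 probe sets of SF3A1 ran from -0.68 to 0.27 but for a dim one at -1.17. The 6 probe sets of HNRNPH1 ran from -0.82 to 0.23. Of the 3 further probe sets of HNRNPDL, 1 repeated the middle-aged maximum without overlap between middle-aged and other arrays (log2 fold changes of -0.75 in old against middle-aged and 0.57 in middle-aged against young ovaries). Another was highest in middle-aged ovaries in estimate, at -0.24 and 0.18 with overlapping groups, and the last was not, at -0.30 and -0.23. Probe sets can read different transcripts of a gene, and 11 of the 61 brightest ones, HNRNPM, HNRNPC, HNRNPDL, LSM5 and SNRPC among them, are of the types that may also match related transcripts.

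**Figure D5:**
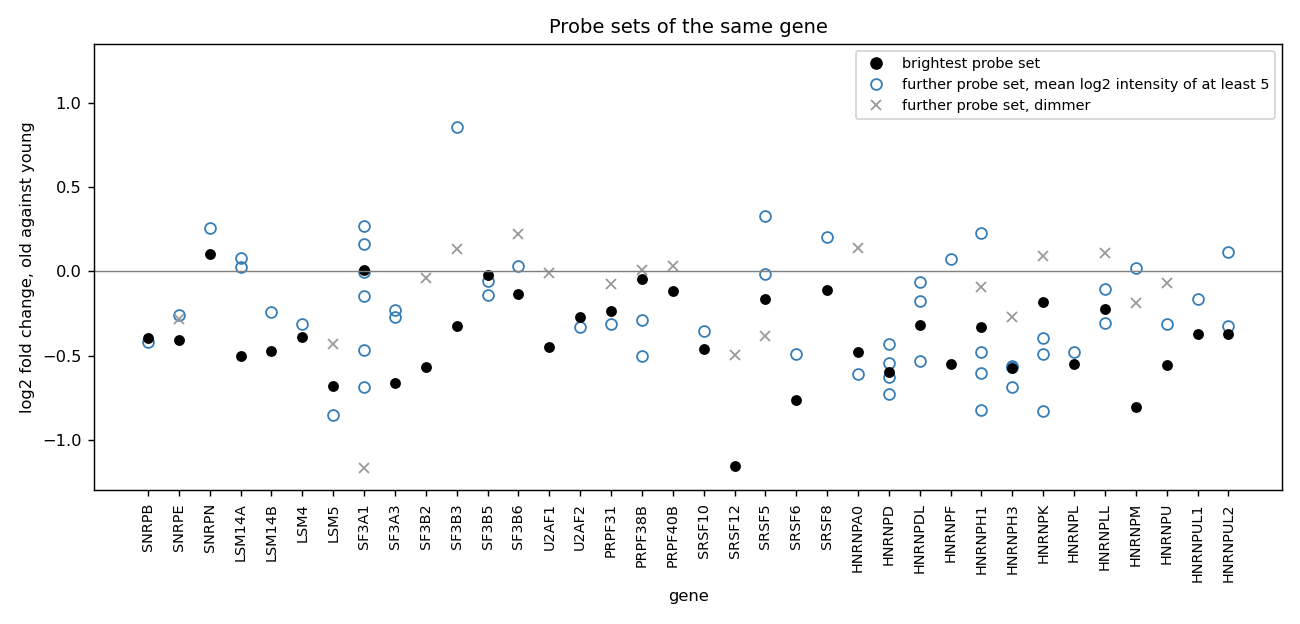
Log2 fold change in old against young ovaries (limma) for the 36 genes with several probe sets: the brightest (filled), further ones with a mean log2 intensity of at least 5 (open), and dimmer ones (crosses). The 5 readings of HNRNPD lie between -0.73 and -0.43, those of SF3A1 between -0.68 and 0.27 apart from a dim one at -1.17.

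Genes of the same pathway under other symbols were also mostly lower in estimate in old against young ovaries, and none of them was called by limma. The study's own SAM list gives several of them as lower in old than in young ovaries. TGS1, DHX9, PTBP1 and IGF2BP3 are among these, with DDX46 and ALYREF under other symbols. TGS1 and IGF2BP3 are also on its list against middle-aged ovaries. Of 52 listed spliceosome proteins outside the symbol rule 40 were measured. In old against young ovaries 36 of them were lower in estimate and 17 at an unadjusted p under 0.05 with 0 higher, and the median log2 fold change was -0.28. Lower at that p were 42.5% of this list, 7.89% of all probe sets and 14.4% of genes with a mean log2 intensity of at least 5. The RNA helicases DDX46, of the U2 snRNP, and SNRNP200, of the U5 snRNP, had -0.67 ± 0.14 and -0.47 ± 0.11, with old below young and middle-aged arrays in both. SNW1, of the catalytic spliceosome, had -0.72 ± 0.19, and the helicase DHX8 and the minor-spliceosome protein ZRSR2 had positive estimates of 0.22 ± 0.13 and 0.28 ± 0.19.

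Of 24 genes of snRNP assembly 16 were measured, and 15 were lower in estimate with a median of -0.27, 4 at an unadjusted p under 0.05. TGS1, which puts the trimethyl cap on small nuclear RNAs, was at 398, 561 and 514 in young, 459, 427 and 514 in middle-aged, and 303, 283 and 300 in old ovaries. Its old values lay below the other 6, at -0.72 ± 0.15 (limma adjusted p = 0.111), while PHAX, the export adaptor of these RNAs, had 0.12 ± 0.13. This list held a smaller share at that p, 25%, than the 44.3% of the members, beside 14.4% of genes with a mean log2 intensity of at least 5. Of 26 SR protein kinases, SR-like, exon junction and export factors 17 were measured, with 16 lower in estimate, 5 at an unadjusted p under 0.05, and a median of -0.32. The mRNA export factors ALYREF and NXF1 had -0.77 ± 0.17 and -0.46 ± 0.15, and the kinase SRPK2 0.06 ± 0.21.

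Of 30 hnRNP proteins under other symbols and related RNA-binding proteins 21 were measured. The median of -0.44 was close to that of the HNRNP genes, 20 were lower in estimate and 10 at an unadjusted p under 0.05. PTBP1, which represses exons next to pyrimidine tracts, was at 4361, 4497 and 3854 in young, 4085, 3556 and 2705 in middle-aged, and 2098, 2725 and 2391 in old ovaries. Its old values lay below the young ones, at -0.82 ± 0.17 (limma adjusted p = 0.117), and its relative PTBP3 had 0.17 ± 0.19. DHX9, a helicase of ribonucleoprotein complexes, had -0.71 ± 0.12 (limma adjusted p = 0.0774) and NONO, a paraspeckle protein, -1.43 ± 0.35. IGF2BP3, an mRNA-binding protein, stood far from the rest of the list: it was at 389, 1009 and 1037 in young, 182, 499 and 931 in middle-aged, and 65.9, 52.6 and 27.6 in old ovaries. Its log2 fold change of -4.02 ± 0.63 (limma adjusted p = 0.0715) was below that of every one of the splicing genes. The called oocyte markers ran from -7.20 to -2.87, with the uncalled ZP4 at 0.83. The lowest granulosa marker was at -3.88 and the lowest marker of dividing cells at -3.45. The source of the difference in IGF2BP3 was not tested.

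Against middle-aged ovaries, some genes of each list were lower at an unadjusted p under 0.05 and none higher. They were 9 of 40 further spliceosome genes, 2 of 16 assembly genes, 4 of 17 SR-related and export genes and 9 of 21 hnRNP-related genes. In percent these counts are 22.5, 12.5, 23.5 and 42.9. Beside them stand 4.79% of all probe sets and 9.68% of genes with a mean log2 intensity of at least 5, so the assembly genes were near the latter. In the same order, 13, 1, 3 and 8 genes lay below all middle-aged arrays, or 32.5, 6.25, 17.6 and 38.1%. That held for 6.49% of all probe sets and 11% of genes at or above that mean, so the assembly genes did not exceed them. The medians were -0.22, -0.17, -0.23 and -0.35.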

How the data were processed

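Total RNA of 9 rhesus ovaries, 3 monkeys per age, was hybridised to the Affymetrix rhesus genome array. Per the labels, the authors deposited RMA intensities, which are on a linear scale, for 52865 probe sets; the study's methods describe a different scan with LOWESS normalisation and dye reversal, so the route rests on the labels. Detection calls and the RMA version are not given in the sources used here. No genome build is named, and no coordinates are given.

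Log2 intensities of the 52766 probe sets left after 99 control probe sets were removed were fitted as deposited with limma 3.58.1 in R 4.3.3, as 1 model with a mean for each age, and p-values were adjusted by Benjamini-Hochberg over all of them. SAM was run over all 20 labelings of 3 against 3. The annotation gave 1 symbol for 24956 probe sets, several for 361 and none for 27449; only the first were named. Column medians ran from 24.2 to 25.8, and correlations between arrays from 0.947 to 0.989. With 3 arrays per age, their number limits the precision.

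The members, the further gene lists and the marker lists were chosen with earlier results of these data known. Members named were those the study names, those with the smallest p in each subfamily and direction, and in the pathway lists those with the smallest p; HNRNPA1 and HNRNPH1, which the study's supplement lists under older symbols, were added late, and these, HNRNPH3, SNRPB2 and any given only in a count of a pattern were named after their values were seen. On simulated data with 200 changed probe sets of 52766 for old against young ovaries, limma recovered 34% of 2-fold, 74% of 4-fold and 84% of 8-fold changes with 5 false calls. Alternatives were other scalings, filters, variance priors, probe set rules, SAM, a replicate block and leaving out arrays.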

Additional observations from a re-analysis of the deposited data

How the results depend on the processing

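Over all alternatives limma called none of the 61 genes in any comparison, and only SAM called members, 2 in old against young ovaries. Of 44 results on counts and medians under 820 alternatives, 52 values moved, and each is covered here; no median over all members turned positive. The number of members higher at an unadjusted p under 0.05 was 1 in old against young ovaries after centring of the arrays, with quantile normalization and with the replicate block, and 1 in old against middle-aged ovaries with quantile normalization, the replicate block or the mean of all probe sets of a gene; in middle-aged against young ovaries that mean gave 0. The replicate numbers of the labels were not taken as pairs, since not every correlation of the deviations of same-numbered arrays was over 0.1. These correlations were 0.04 to 0.25 in old against young, -0.02 to 0.35 in old against middle-aged and 0.06 to 0.41 in middle-aged against young ovaries, and the best match carried the same number in 7 of 9 checks. The GAPDH difference between 3′ and 5′ probe sets was lowest on the array numbered 1 (1.64 to 1.77) and highest on that numbered 3 (2.22 to 2.36) in each age; whether the numbers mark a shared step was not tested. In a fit with the replicate block 30 members were lower at that p in old against young ovaries, and no call changed.

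With the mean of all probe sets of a gene the medians were -0.32 for HNRNP in old against young ovaries, -0.28 for HNRNP, -0.17 for SF3, -0.18 for U2AF and -0.24 for all members in old against middle-aged ovaries, and -0.32 for HNRNP in old against the other ages. With every probe set of the members (chosen after seeing the data, as was the next setting) they were -0.14 for SF3 in old against young, -0.16 for SF3, -0.13 for U2AF and -0.35 for HNRNP in old against middle-aged, and -0.12 for SF3 and -0.17 for PRPF in old against the other ages. With the 3 arrays numbered 3 left out, U2AF was at -0.12 against young and -0.17 against the other ages, 2 members were higher in old against young and 1 in old against middle-aged ovaries, and 2 were higher and 0 lower in middle-aged against young ovaries. The cause was not tested.

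Leaving out 1 array at a time, members lower at that p ranged from 17 to 30 in old against young, 15 to 29 in old against middle-aged and 0 to 3 in middle-aged against young ovaries, and members higher from 0 to 1, 0 to 2 and 1 to 2, and 0 to 2 in old against the other ages. The medians ranged from -0.45 to -0.30 for all members, -0.36 to -0.11 for U2AF and -0.58 to -0.28 for HNRNP in old against young; from -0.39 to -0.18 for U2AF, -0.29 to -0.088 for PRPF and -0.56 to -0.29 for HNRNP in old against middle-aged; from -0.15 to 0.00095 for PRPF in middle-aged against young; and from -0.43 to -0.30 for all members, -0.37 to -0.14 for U2AF and -0.57 to -0.31 for HNRNP in old against the other ages. Of 2201 alternatives for the 31 named members in 4 comparisons, 51 turned the sign of an uncalled value and none changed a call. In the simulation limma recovered 34% of 2-fold changes, and the members' differences were mostly smaller.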
